A study of Mus musculus with 8 samples.

Results

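The interferon-inducible GTPases described here are 10 mouse genes: the guanylate-binding proteins Gbp2, Gbp3, Gbp4, Gbp5, Gbp6 and Gbp8, and the immunity-related GTPases Iigp1, Igtp, Irgm1 and Irgm2. They were found among the array's 41174 non-control probes by gene name, older alias and, where names differed, by the transcript accession of the probe. The 10 genes had 13 probes, and 12 of these passed the detection filter (a probe had to exceed background clearly in 1 RNA on both arrays of a dye swap, in at least 1 comparison). All 10 genes were therefore among the 19985 features tested, of 27573 before the filter. The genes had been picked with ratios of all 4 comparisons known, so their own ratios are given as a description, with no test. Several names on the array are old. Gbp8 is listed as 5830443L24Rik, the probe listed as Mpa2l carries the accession of Gbp6, and the probe listed as Gbp6 carries that of Gbp7, which is no member. Irgm1 is listed as Irgm and Irgm2 as Iigp2.

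Expression was measured in precursor B cells from the bone marrow of Pax5-/- mice, cultured in IL-7 over a feeder layer of irradiated OP9 stroma. Pax5 is a transcription factor that B lineage commitment depends on, and the precursor B cells behind every RNA in the study lack the mouse gene. Clone 4, a single clone, carried a human Pax5 transgene (huPax5) behind a promoter that needs doxycycline and the transactivator rtTA, and was given 10, 300 or 1000 ng/ml doxycycline. Pax5sz2 cells had rtTA but not huPax5, and their label says doxycycline without a dose. Each of these 4 RNAs was hybridised against clone 4 without doxycycline (0 ng/ml) on 2 dye-swapped dual-colour arrays, which makes 8 arrays. A comparison thus rests on 1 RNA sample per group measured on 2 technical arrays, and every ± below is the SD of those 2 arrays. Clone 4 and Pax5sz2 are different cells, so for Pax5sz2 the transgene, doxycycline and the cells cannot be told apart.

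Guanylate-binding proteins and immunity-related GTPases are among the most strongly interferon-induced proteins of mouse cells. They bind and hydrolyse GTP and assemble on the membrane of vacuoles that hold intracellular pathogens. Interferon gamma acts through its receptor and the Janus kinases, and genes that respond to it often carry a gamma-activated site (GAS). Genes that respond to type I interferons often carry an interferon-stimulated response element (ISRE), to which Irf9 directs a complex of transcription factors. Among the immunity-related GTPases, Iigp1 is an effector that coats the vacuole, while Igtp, Irgm1 and Irgm2 are regulators on the cell's own membranes that hold the effectors inactive.

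Which way the 1000 ng/ml pair runs could not be settled. Its 2 arrays were rehybridised slides from an earlier scan batch, read with an older protocol of the scanner software, so for it the dose cannot be told apart from the batch. Over the 41174 probes, its ratios correlated negatively with those from 300 ng/ml in the same dye arrangement (r = -0.359 where the named RNA was in Cy5, r = -0.46 where it was in Cy3, a description across probes rather than replicates). The direction in the labels was kept, and each sign given for 1000 ng/ml would turn if the labels were exchanged. The 2 arrays of a comparison correlated at r = 0.836 with 10 ng/ml, 0.641 with 300 ng/ml, 0.829 with 1000 ng/ml and 0.922 for Pax5sz2, across features. The low value belongs to the 300 ng/ml pair. Its array with the named RNA in Cy5 had 295 outlier spots, against 37 to 115 on the other 7. Outlier spots were left out of the ratios, so they are not in the correlation, and the source of the low value was not tested. The share of spots well above background was 40.4% to 45.1% per channel in the 1000 ng/ml pair and 59.5% to 75.5% elsewhere, by different detection thresholds. The number of arrays limits the precision.

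Promoter sequence was searched for 6 of the 10 genes (Gbp2, Gbp3, Gbp5, Igtp, Irgm1 and Irgm2), as 7 windows of 250 bases before a RefSeq gene start. No sequence was at hand for Gbp4, Gbp6 and Gbp8. Iigp1 was left out of the search, so nothing is said here of its promoter. The sequences below are RefSeq's for GRCm38.p6, read 5′ to 3′ on the gene's strand. Capitals mark an ISRE core (GAAA, any 2 bases and GAAA again) or a GAS (TTCNNNGAA), searched on both strands, so that the ISRE core can also appear as TTTC, any 2 bases and TTTC. The 3 regulators among the immunity-related GTPases are shown first, since their ratios ran side by side with 10 ng/ml, and then 2 guanylate-binding proteins whose ratios stayed under 2-fold with doxycycline.
Igtp, chr11:58199306-58199555, plus strand: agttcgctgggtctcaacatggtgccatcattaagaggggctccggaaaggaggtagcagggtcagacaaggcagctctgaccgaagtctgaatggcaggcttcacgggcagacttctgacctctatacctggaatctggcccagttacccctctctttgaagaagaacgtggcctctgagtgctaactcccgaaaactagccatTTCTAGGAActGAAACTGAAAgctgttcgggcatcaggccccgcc
Irgm2, chr11:58214727-58214976, plus strand: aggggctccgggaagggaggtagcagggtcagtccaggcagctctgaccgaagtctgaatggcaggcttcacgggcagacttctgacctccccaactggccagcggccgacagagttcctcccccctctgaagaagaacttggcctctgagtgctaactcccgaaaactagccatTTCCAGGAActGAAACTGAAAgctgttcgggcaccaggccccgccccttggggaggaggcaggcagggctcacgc
Irgm1, chr11:48871421-48871670, minus strand: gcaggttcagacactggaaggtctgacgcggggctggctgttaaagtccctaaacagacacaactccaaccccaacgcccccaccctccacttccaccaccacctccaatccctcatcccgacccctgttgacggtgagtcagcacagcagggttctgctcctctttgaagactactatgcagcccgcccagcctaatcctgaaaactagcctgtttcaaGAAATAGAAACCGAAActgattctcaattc
Gbp2, chr3:142620413-142620662, plus strand: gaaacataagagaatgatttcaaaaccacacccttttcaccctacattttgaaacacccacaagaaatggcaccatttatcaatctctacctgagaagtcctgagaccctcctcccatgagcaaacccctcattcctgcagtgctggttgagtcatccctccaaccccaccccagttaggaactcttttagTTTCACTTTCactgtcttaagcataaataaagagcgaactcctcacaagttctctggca
Gbp5, chr3:142496684-142496933, plus strand: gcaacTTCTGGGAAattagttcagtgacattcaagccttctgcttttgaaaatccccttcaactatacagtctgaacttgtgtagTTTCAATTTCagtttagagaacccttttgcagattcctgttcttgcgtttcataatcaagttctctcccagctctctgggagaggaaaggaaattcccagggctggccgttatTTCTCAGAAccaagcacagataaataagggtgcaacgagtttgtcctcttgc

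All 6 genes searched held an ISRE core in at least 1 window, and 3 of the 6 also held a GAS. This count does not cover Iigp1, Gbp4, Gbp6 and Gbp8. Of 32851 promoter windows of the same length, 2.98% held the ISRE core, 7.02% the GAS and 0.332% both. In Igtp and Irgm2, neighbours on chromosome 11, the GAS ends 2 bases before the ISRE core, and their windows share an unbroken run of 55 bases. Irgm1, also on chromosome 11, has 2 overlapping ISRE cores within 30 bases of its start. Gbp2 has 1 ISRE core, and Gbp5 has 1 ISRE core between 2 GAS matches. In Gbp3, 1 of the 2 windows held 2 overlapping ISRE cores and the other held no match. A match is a description of letters and does not show that a factor binds there. Of the 3 genes that held both motifs, Igtp, Irgm2 and Gbp5 were each above 0 with 10 ng/ml on both arrays. Of the 3 with an ISRE core alone, Irgm1 was above 0 on both, Gbp3 below 0 on both, and Gbp2 lay on either side of 0. In Pax5sz2, Igtp, Irgm2 and Irgm1 were above 0 on both arrays, and Gbp5, Gbp3 and Gbp2 below. Gbp7, which is no member but also held both motifs, had 0.1 and 0.12 with 10 ng/ml and -0.54 and -0.48 in Pax5sz2. The members were picked with their ratios known, so nothing is read from motif and ratio together.

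A gene was called higher or lower where its log2 ratio was at least 1 in the same direction on both arrays (2-fold, with no test). With 10 ng/ml, Iigp1 was called higher and Gbp8 lower among the 10 genes, beside 0.606% higher and 1.27% lower of all features. With 300 ng/ml, Iigp1 and Irgm1 were called higher and Gbp4 and Gbp8 lower, beside 1.33% higher and 2.38% lower of all features. With 1000 ng/ml as labelled, Gbp4 and Gbp8 were called higher and none lower, beside 1.94% higher and 0.638% lower of all features. In Pax5sz2, Iigp1 and Irgm2 were called higher and Gbp8 lower, beside 2.34% and 2.82% of all features. The Gbp8 call with 10 ng/ml was lost under median centring of each array and in the mean over the gene's probes. The Gbp8 call in Pax5sz2 was lost under both of these and with the authors' deposited ratios. Median centring also ended the calls of Irgm1 with 300 ng/ml and of Gbp4 with 1000 ng/ml, while the Gbp8 calls with 300 and 1000 ng/ml and the 3 calls of Iigp1 held under these 3 settings. Since the genes were chosen with these ratios known, nothing is read from their counts.

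The medians of the 2 families lay apart. The median log2 ratio of the 4 immunity-related GTPases was 1.12 with 10 ng/ml, 1.2 with 300 ng/ml, -0.02 with 1000 ng/ml and 1.5 in Pax5sz2. That of the 6 guanylate-binding proteins was -0.13, -0.16, 0.4 and -0.6 in the same order. The median of all features lay between 0 and 0.03. Among the guanylate-binding proteins, Gbp8 and Gbp4 lay farthest from 0 at each dose. The lowest and the highest of the 10 genes were 3.46 log2 units apart with 10 ng/ml, 6.14 with 300 ng/ml, 4.81 with 1000 ng/ml and 4.66 in Pax5sz2.

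**Figure D1:**
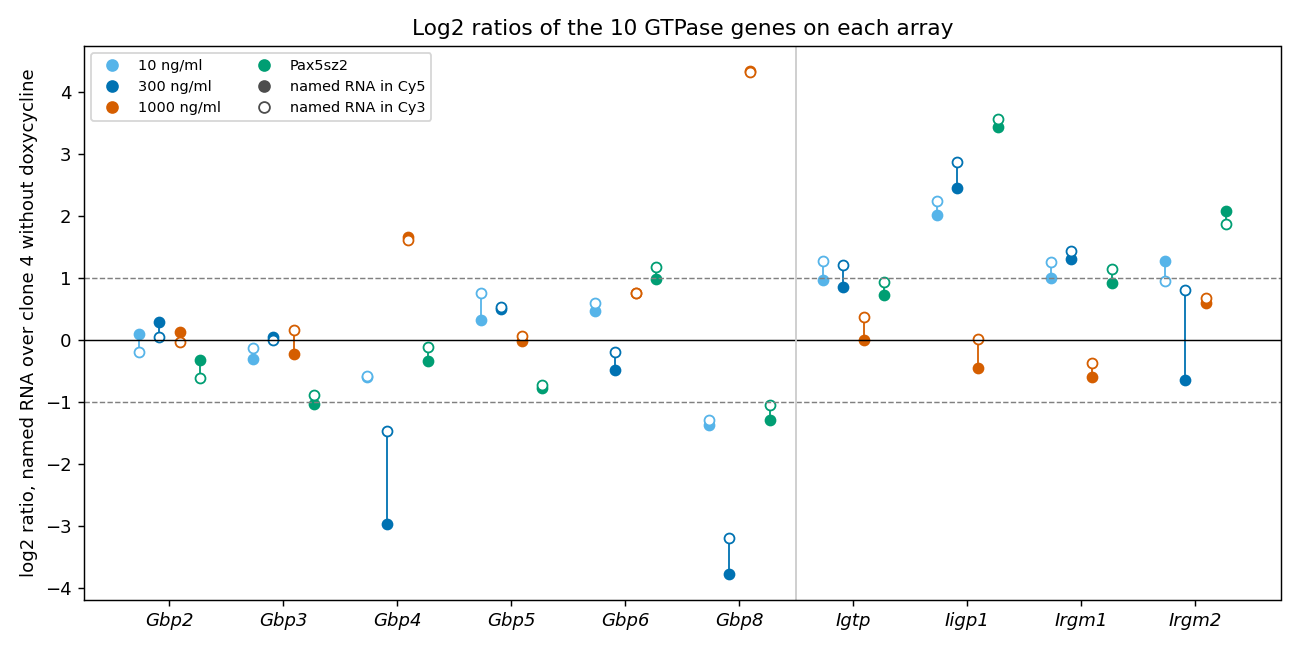
Log2 ratio of each of the 10 genes on each array, in the order 10, 300 and 1000 ng/ml and Pax5sz2, each over clone 4 without doxycycline; filled points have the named RNA in Cy5, open points in Cy3, a line joins the 2 arrays, and dashed lines mark the 2-fold size. Gbp8 lies at -3.78 and -3.19 with 300 ng/ml and at 4.33 and 4.32 with 1000 ng/ml, while Iigp1 lies at 2.01 or above on each array of the other 3 comparisons.

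Gbp8, one of the guanylate-binding proteins clustered on chromosome 5, spanned 7.81 log2 units over the 4 comparisons as labelled, against 3.71 for Iigp1. With the sign of the 1000 ng/ml pair turned, it spanned 3.16, against 3.27 for Iigp1. Its brighter probe (mm8, chr5:105255050-105255109, minus strand, the array's own coordinates) gave log2 ratios of -1.37 and -1.29 with 10 ng/ml. It gave -3.78 and -3.19 with 300 ng/ml, and 4.33 and 4.32 with 1000 ng/ml as labelled. It gave -1.29 and -1.05 in Pax5sz2. Both arrays thus agreed in sign in every comparison, with Gbp8 2.51-fold lower with 10 ng/ml (-1.33 ± 0.060), 11.2-fold lower with 300 ng/ml (-3.48 ± 0.42), 20.0-fold higher with 1000 ng/ml (4.32 ± 0.0093) and 2.25-fold lower in Pax5sz2 (-1.17 ± 0.17). In bulk RNA, fewer cells of a type and less RNA per cell cannot be told apart. A second Gbp8 probe (chr5:105257990-105258049) had the same signs at smaller size: -1.01 and -0.65 with 10 ng/ml, -1.88 and -2.17 with 300 ng/ml, 2.41 and 2.69 with 1000 ng/ml and -0.82 and -0.51 in Pax5sz2. With 10 ng/ml and in Pax5sz2 this probe did not reach 2-fold on both arrays. With 1000 ng/ml its control signal exceeded background clearly on 1 of the 2 arrays.

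The level of Gbp8 in each RNA shows which side of the ratio differed. On the log2 scale of normalized intensity, the named RNA stood at 11.27 and 10.95 with 10 ng/ml, 8.78 and 8.75 with 300 ng/ml, 12.71 and 12.08 with 1000 ng/ml, and 11.62 and 11.30 in Pax5sz2. Clone 4 without doxycycline stood between 11.94 and 12.91 (median 12.45) on the 6 arrays of 10 ng/ml, 300 ng/ml and Pax5sz2. On the 1000 ng/ml arrays it stood at 8.38 and 7.77. The RNA labelled as control there was thus lower than on any other array, and near the 8.78 and 8.75 of the RNA labelled 300 ng/ml. The RNA labelled 1000 ng/ml lay within the range of the control on the other 6. In order, the levels were lowest with 300 ng/ml, then with 10 ng/ml, then in Pax5sz2, then in the control of the 6 arrays. The gap between the 10 ng/ml and Pax5sz2 levels (11.27 and 11.30 at its edges) was smaller than the spread of either over its 2 arrays. The second probe showed the same split, with the control at 9.90 to 10.11 on the 6 arrays and at 7.79 and 7.29 on the 1000 ng/ml arrays.

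**Figure D2:**
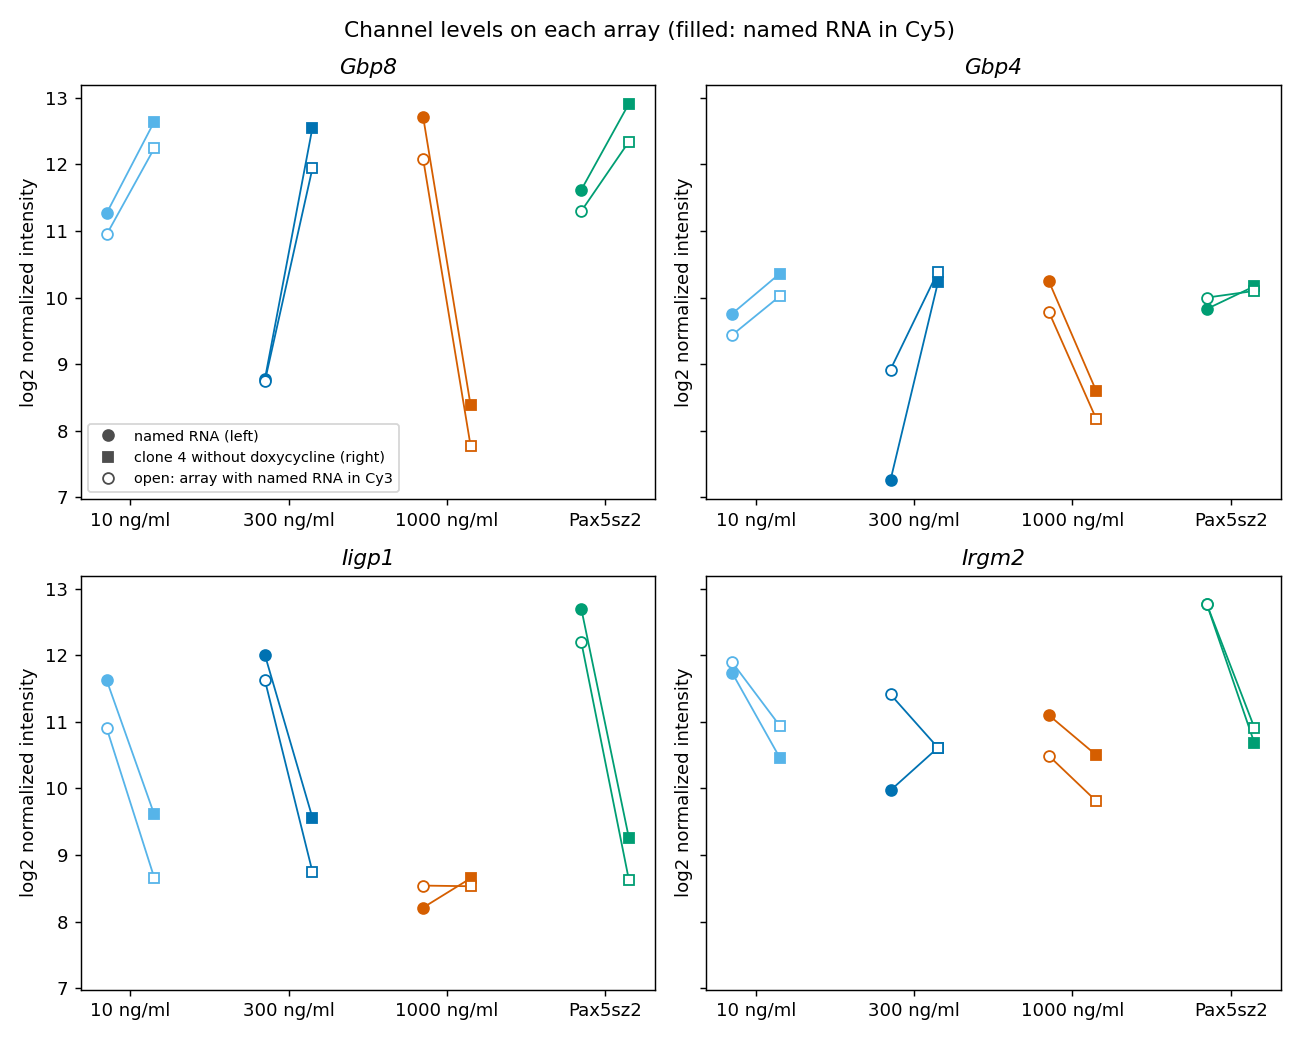
Normalized log2 intensity of Gbp8, Gbp4, Iigp1 and Irgm2 in each channel of each array; circles on the left are the named RNA, squares on the right clone 4 without doxycycline, open symbols are arrays with the named RNA in Cy3, and a line joins the channels of an array. For Gbp8 the control lies at 11.94 or above on 6 arrays and at 8.38 and 7.77 on the 1000 ng/ml arrays, while for Iigp1 the control lies between 8.53 and 9.61 on all 8.

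Gbp4, also on chromosome 5, followed Gbp8 in sign. Its log2 ratios were -0.60 and -0.58 with 10 ng/ml and -2.97 and -1.47 with 300 ng/ml. They were 1.65 and 1.61 with 1000 ng/ml and -0.34 and -0.11 in Pax5sz2. The 300 ng/ml arrays placed it on the same side but differed by more than 1 log2 unit from each other (-2.22 ± 1.1). Gbp4's named RNA stood at 7.26 and 8.92 with 300 ng/ml, and the control at 10.23 and 10.39 on the same arrays. As for Gbp8, the control level of Gbp4 was lower on the 1000 ng/ml arrays (8.60 and 8.18) than on the other 6 (10.02 to 10.39).

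Gbp6, the third gene of the chromosome 5 cluster among the 10, had their signs only with 300 and 1000 ng/ml. Its ratios were 0.47 and 0.60 with 10 ng/ml, -0.48 and -0.19 with 300 ng/ml, 0.76 and 0.76 with 1000 ng/ml, and 0.98 and 1.17 in Pax5sz2. The Pax5sz2 value was above 2-fold on 1 array and just under it on the other, so that Gbp6 was not called (1.08 ± 0.13). It was above 0 on both arrays wherever Gbp8 was below 0, except with 300 ng/ml, where both were below. With the deposited ratios Gbp6 averaged 0.04 with 300 ng/ml. The control level of Gbp6 was also lower on the 1000 ng/ml arrays (8.06 and 7.53) than on the other 6 (8.77 to 9.09).

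The 3 members on chromosome 3 moved little with doxycycline. Gbp2 had ratios of 0.10 and -0.19 with 10 ng/ml, 0.28 and 0.05 with 300 ng/ml, and 0.13 and -0.04 with 1000 ng/ml. Gbp3 had -0.31 and -0.13 with 10 ng/ml, 0.05 and -0.01 with 300 ng/ml, and -0.23 and 0.16 with 1000 ng/ml. For both genes the sign differed between the arrays of at least 1 dose. Gbp5, known for its part in inflammasome activation, was somewhat above 0, with 0.32 and 0.75 with 10 ng/ml, 0.50 and 0.53 with 300 ng/ml, and -0.02 and 0.06 with 1000 ng/ml.

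In Pax5sz2, by contrast, all 3 were below 0 on both arrays. The ratios were -0.32 and -0.61 for Gbp2, -1.03 and -0.89 for Gbp3, and -0.77 and -0.72 for Gbp5. Gbp3 fell short of the 2-fold size by 1 array (-0.96 ± 0.097). The control level of Gbp2 hardly differed between batches: it lay between 9.71 and 9.96 on the 6 arrays and at 9.99 and 10.00 on the 1000 ng/ml arrays.

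Iigp1, the effector, was the highest of the 10 genes with 10 ng/ml, with 300 ng/ml and in Pax5sz2. Its log2 ratios were 2.01 and 2.24 with 10 ng/ml, 2.44 and 2.87 with 300 ng/ml, -0.45 and 0.01 with 1000 ng/ml, and 3.43 and 3.56 in Pax5sz2. That is 4.37-fold higher with 10 ng/ml (2.13 ± 0.16), 6.29-fold with 300 ng/ml (2.65 ± 0.31) and 11.3-fold in Pax5sz2 (3.49 ± 0.092). With 1000 ng/ml the arrays lay on opposite sides of 0 (-0.22 ± 0.32). The named RNA stood at 11.62 and 10.90 with 10 ng/ml, 12.00 and 11.62 with 300 ng/ml, 8.21 and 8.54 with 1000 ng/ml, and 12.69 and 12.19 in Pax5sz2. The control stood at 8.63 to 9.61 on the 6 arrays and at 8.65 and 8.53 on the 1000 ng/ml arrays. In contrast to Gbp8, the control of Iigp1 was about as low in both batches, and the 2 channels of the 1000 ng/ml arrays were both near it. The 10 and 300 ng/ml levels touch at 11.62, and those of Pax5sz2 lie above both.

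Igtp and Irgm1, which restrain the effectors, lay 1.78- to 2.59-fold above the control with 10 ng/ml, with 300 ng/ml and in Pax5sz2. Igtp had ratios of 0.97 and 1.27 with 10 ng/ml, 0.85 and 1.21 with 300 ng/ml, 0 and 0.37 with 1000 ng/ml, and 0.73 and 0.94 in Pax5sz2. It reached 2-fold on 1 array each with 10 and 300 ng/ml and on none of the others, so it was called in no comparison. Irgm1 had ratios of 0.99 and 1.26 with 10 ng/ml, 1.31 and 1.43 with 300 ng/ml, -0.60 and -0.37 with 1000 ng/ml, and 0.92 and 1.14 in Pax5sz2. Its call with 300 ng/ml (1.37 ± 0.081, 2.59-fold) was just missed with 10 ng/ml and in Pax5sz2 by its brighter probe.

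A second Irgm1 probe (mm8, chr11:48709340-48709399, minus strand) was past the size in all 3. It gave 1.34 and 1.18 with 10 ng/ml, 2.04 and 1.46 with 300 ng/ml, -0.41 and -0.66 with 1000 ng/ml, and 1.16 and 1.30 in Pax5sz2. Both probes thus had the same signs throughout. The third probe, designed on a complementary DNA clone from the locus, did not pass the detection filter.

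Irgm2, whose promoter carries the same pair of motifs as that of Igtp, gave a different series. Its ratios were 1.27 and 0.95 with 10 ng/ml, -0.64 and 0.81 with 300 ng/ml, 0.60 and 0.68 with 1000 ng/ml, and 2.08 and 1.86 in Pax5sz2. In Pax5sz2 it was 3.91-fold higher (1.97 ± 0.16), and with 300 ng/ml the arrays lay on opposite sides of 0 (0.08 ± 1.0). There the named RNA stood at 9.97 where it was in Cy5 and at 11.41 where it was in Cy3, with the control at 10.61 on both. Without the Cy5 array the 300 ng/ml ratio of Irgm2 is 0.81. With outlier spots kept the mean of the 2 arrays was still 0.08.

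Set against each other on the same array, Iigp1 and Gbp8 were far apart. The log2 ratio of Iigp1 minus that of Gbp8 was 3.39 and 3.53 with 10 ng/ml, 6.21 and 6.06 with 300 ng/ml, -4.78 and -4.31 with 1000 ng/ml, and 4.72 and 4.60 in Pax5sz2. The difference Irgm2 minus Gbp4 was 1.87 and 1.53 with 10 ng/ml, 2.33 and 2.28 with 300 ng/ml, -1.05 and -0.94 with 1000 ng/ml, and 2.42 and 1.96 in Pax5sz2. In both pairs the 2 arrays of a comparison lay close together, also with 300 ng/ml, and the sign turned only with 1000 ng/ml as labelled. With 300 ng/ml, however, Irgm2 and Gbp4 were both lower on the array with the named RNA in Cy5 (-0.64 and -2.97) than on the other (0.81 and -1.47). That shared shift cancels in the difference, so its closeness does not show that either ratio was reproduced. These differences describe genes picked for their ratios and were not tested.

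**Figure D3:**
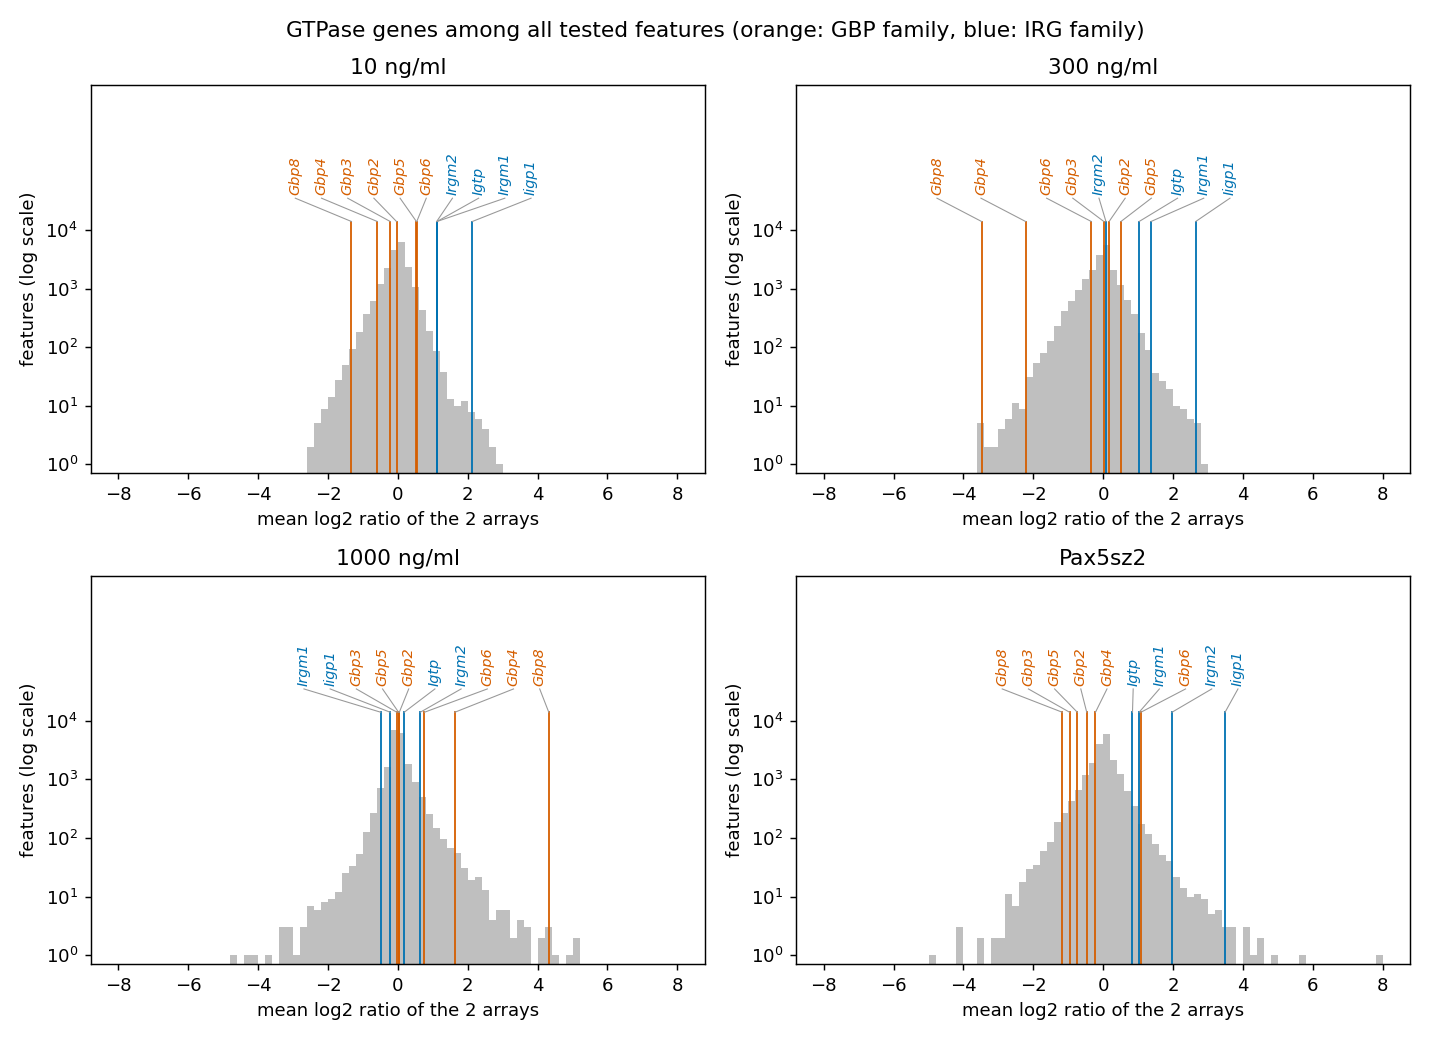
Distribution of the mean log2 ratio of the 2 arrays over all tested features (grey bars, count on a log axis) in each comparison, with the guanylate-binding proteins in orange and the immunity-related GTPases in blue. Gbp8 stands at the left edge with 300 ng/ml (-3.48) and near the right edge with 1000 ng/ml (4.32), and Iigp1 in the right tail with 10 ng/ml (2.13), with 300 ng/ml (2.65) and in Pax5sz2 (3.49).

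Other GTPases of these families, from a list drawn up with earlier results known, showed both patterns. Of the 3 further guanylate-binding proteins with a probe, Gbp9, on chromosome 5, had the signs of Gbp8 and Gbp4. Its ratios were -0.79 and -0.77 with 10 ng/ml, -1.05 and -1.33 with 300 ng/ml, 1.29 and 0.88 with 1000 ng/ml, and -0.70 and -0.64 in Pax5sz2. A second probe assigned to Gbp9 lists transcripts of Gbp4, Gbp6, Gbp9 and Gbp10, so signal of these genes may be mixed on it. Gbp7 and Gbp2b, on chromosome 3, stayed between -0.51 and 0.30 in all 4 comparisons, and only Gbp9 with 300 ng/ml was called among the 3.

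Of 9 further immunity-related and large GTPases tested, Mx2 was called higher with 10 and 300 ng/ml, and Gvin1 lower in Pax5sz2. Mx2, an antiviral dynamin-like GTPase, had ratios of 1.01 and 1.15 with 10 ng/ml, 1.07 and 1.16 with 300 ng/ml, -0.05 and 0.11 with 1000 ng/ml, and 0.31 and 0.32 in Pax5sz2. Gm12250, an immunity-related GTPase also called Irgb10, had 1.1 ± 0.28 with 10 ng/ml, 1.07 ± 0.11 with 300 ng/ml, -0.22 ± 0.011 with 1000 ng/ml and 1.26 ± 0.43 in Pax5sz2. It resembled Igtp and Irgm1 in sign with 10 ng/ml, 300 ng/ml and in Pax5sz2. The brightest Gvin1 probe gave -0.89, -0.84, 0.50 and -2.01 in the order of the comparisons, but 2 other Gvin1 probes gave 0.17 and 0.12 in Pax5sz2, so the gene has no settled value. The median of the 9 was 0.41 with 10 ng/ml, 0.37 with 300 ng/ml, 0.05 with 1000 ng/ml and 0.32 in Pax5sz2, beside medians of all features of 0.01, 0, 0 and 0.03.

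**Figure D4:**
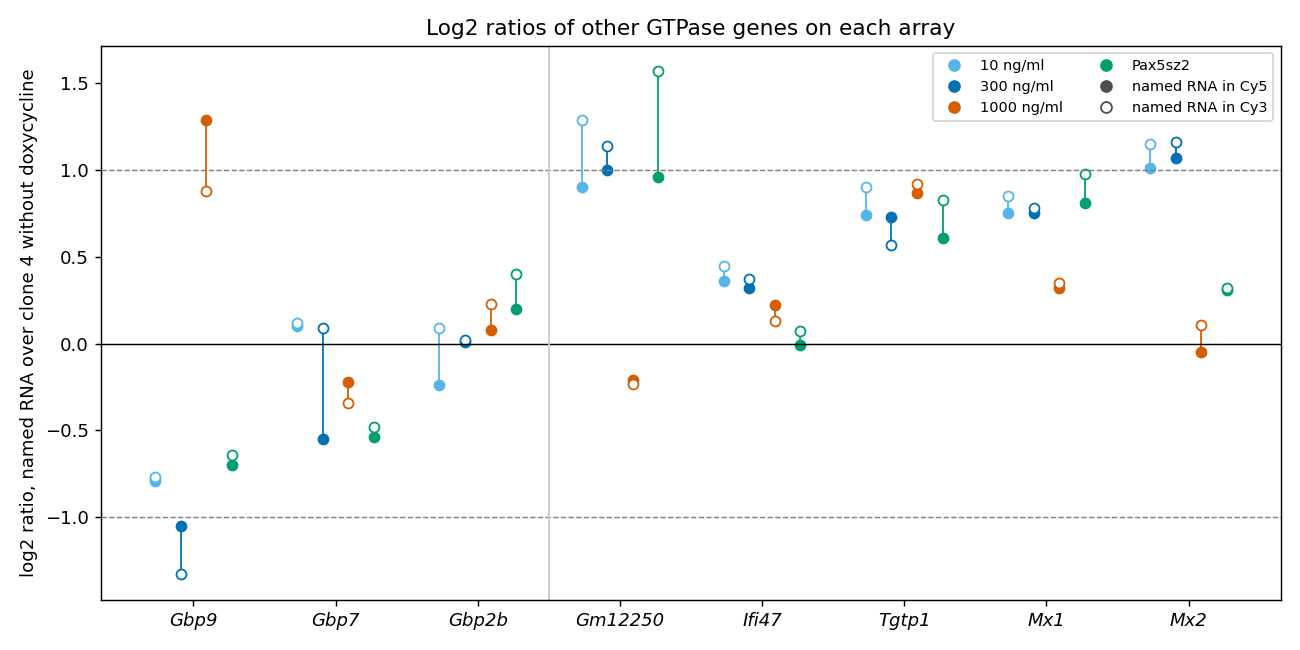
Log2 ratio of 8 other GTPase genes on each array, drawn as for the 10 genes, with guanylate-binding proteins left of the grey line. Gbp9 lies below 0 on both arrays of 10 ng/ml, 300 ng/ml and Pax5sz2 and above it with 1000 ng/ml, while Gm12250 lies at 0.90 or above on both arrays of 10 ng/ml, 300 ng/ml and Pax5sz2.

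The ligands of the pathway were not called in any comparison. Of 5 tested interferon genes, Ifnb1, which encodes interferon beta, had ratios of 0.33 ± 0.16 with 10 ng/ml and 0.35 ± 0.42 with 300 ng/ml. Its control was well above background on 0 of the 2 arrays at each of these doses, and its named RNA on 1 of 2 with 300 ng/ml. Ifng, which encodes interferon gamma, had -0.10 ± 0.032 and -0.18 ± 0.25 at these doses and was well above background in 0 of the 4 channels of the 300 ng/ml arrays. All of the 5 lay between -0.18 and 0.35 in the 4 comparisons. With 1000 ng/ml none of the 5 was well above background in either RNA, so a change in ligand RNA could be missed.

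Of 7 receptor and kinase genes, only Ifngr1, the ligand-binding chain of the interferon gamma receptor, was called, higher with 1000 ng/ml as labelled. Its ratios were -0.28 and -0.08 with 10 ng/ml, -0.70 and -0.86 with 300 ng/ml, 1.83 and 1.68 with 1000 ng/ml, and -0.75 and -0.45 in Pax5sz2, signs that Gbp8 also had. Ifnar2, a chain of the type I receptor, had -0.72 ± 0.12 with 300 ng/ml and 0.67 ± 0.059 with 1000 ng/ml. Jak2, a kinase of the interferon gamma receptor, had -0.59 ± 0.073 with 300 ng/ml and -0.01 ± 0.016 with 1000 ng/ml.

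Among the interferon regulatory factors, Irf7 was called higher with 300 ng/ml and Irf2 in Pax5sz2. Irf7, the master regulator of type I interferon genes, had ratios of 0.91 and 1.31 with 10 ng/ml, 1.04 and 1.15 with 300 ng/ml, 1.26 and 0.73 with 1000 ng/ml, and 0.02 and 0.36 in Pax5sz2. It was thus above 0 on every array and past 2-fold on both arrays with 300 ng/ml. Irf2, which can repress interferon-responsive promoters, had 1.06 and 1.57 in Pax5sz2 and stayed between -0.24 and 0.52 at the 3 doses. Irf9 had -0.73 ± 0.20 with 300 ng/ml.

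Of 6 inhibitors of the pathway, Usp18 and Socs1 were called with 10 ng/ml, Socs1 with 300 and 1000 ng/ml, and Usp18 in Pax5sz2, all higher. Usp18, which blocks type I receptor signalling, had 3.02 and 2.87 with 10 ng/ml, 0.98 and 2.93 with 300 ng/ml, -0.79 and -0.80 with 1000 ng/ml, and 2.35 and 2.42 in Pax5sz2. Its signs were those of Iigp1 with 10 ng/ml, 300 ng/ml and in Pax5sz2. Socs1, which inhibits Janus kinases, was above 2-fold on both arrays at each dose (1.2 ± 0.038, 1.21 ± 0.076 and 1.09 ± 0.063) and had 0.62 ± 0.091 in Pax5sz2. The phosphatase gene Ptpn6 had -0.61 ± 0.11 with 300 ng/ml, with other probes from -0.33 to 0.09.

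Of 11 tested interferon gamma targets outside the GTPases, 1 was called with 10 ng/ml and 1 with 300 ng/ml, in both cases Cxcl10, and 2 with 1000 ng/ml (Tap2 and Cd74), all higher. None was called in Pax5sz2. Cxcl10, a chemokine, had 1.97 and 1.57 with 10 ng/ml, 2.6 and 2.49 with 300 ng/ml, and -0.38 and -0.13 in Pax5sz2. With 1000 ng/ml it was not well above background in either RNA. In Pax5sz2 the Cxcl10 ratio was thus below 0 on both arrays where that of Iigp1 was 3.43 and 3.56. The immunoproteasome gene Psmb8 had -1.30 ± 0.82 with 300 ng/ml and 0.80 ± 0.21 with 1000 ng/ml. Another Psmb8 probe gave -0.44 and 0.79 at these doses. Ubd, a ubiquitin-like modifier, had 0.65 ± 0.032 with 300 ng/ml, where its control was well above background on only 1 of the 2 arrays. Medians of the 11 lay between -0.12 and 0.32.

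The autophagy conjugation proteins help to load these GTPases onto vacuoles, and none of their 10 genes was called in any comparison. Gabarap had -0.53 ± 0.052 with 10 ng/ml, -0.78 ± 0.061 with 300 ng/ml, 0.39 ± 0.25 with 1000 ng/ml and -0.81 ± 0.30 in Pax5sz2. Map1lc3b had -0.76 ± 0.14 with 300 ng/ml, with another probe at 0.11. Atg12 had -2.29 and -0.61 with 300 ng/ml, while its 2 other probes gave 0.27 and 0.52.

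The median log2 ratio of the myeloid markers had the signs of Gbp8 and Gbp4. It was -0.22 with 10 ng/ml, -1.07 with 300 ng/ml, 1.1 with 1000 ng/ml and -0.32 in Pax5sz2. Not every marker followed: Ctsg had 0.04 and Mpo 0.03 with 10 ng/ml, and Tyrobp had 0.10 in Pax5sz2. Of 10 such markers, 1 was lower with 10 ng/ml, 5 were lower with 300 ng/ml, 5 were higher with 1000 ng/ml and 3 were lower in Pax5sz2 by the size rule. Their summed linear level was 32200 to 42700 in the 10 ng/ml RNA, 7160 to 7680 with 300 ng/ml, 45000 to 55800 with 1000 ng/ml and 21600 to 24900 in Pax5sz2. In clone 4 without doxycycline it was 41600 to 53000 on the 6 arrays but 3600 to 4480 on the 1000 ng/ml arrays, where Elane, Mpo, Itgam, Csf1r and Cd68 were not well above background. The level was thus low in the same 2 sets of channels in which Gbp8 was low. The part of myeloid RNA in the Gbp8 and Gbp4 ratios was not tested.

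The median log2 ratio of the stromal feeder markers was 0.82 with 10 ng/ml, 1.16 with 300 ng/ml, -0.11 with 1000 ng/ml and 0.73 in Pax5sz2. Iigp1, Igtp and Irgm1 were also above 0 with 10 ng/ml, with 300 ng/ml and in Pax5sz2. Of 12 such markers, 3 were higher with 10 ng/ml, 7 with 300 ng/ml, 0 with 1000 ng/ml and 3 in Pax5sz2, and 0 were lower in any of them. Other probes of the called markers ranged from -0.02 (Col3a1) to 1.22 (Cxcl12) with 300 ng/ml. In Pax5sz2 they ranged from -0.10 (Sparc) to 1.25 (Cxcl12), and Fn1 was below 0 on both arrays there (-0.15 and -0.33). Their summed level was 37400 to 42900 with 10 ng/ml, 44700 to 49500 with 300 ng/ml, 18500 to 22400 with 1000 ng/ml and 36800 to 38200 in Pax5sz2. In the control it was 18600 to 21000 on the 6 arrays and 19300 to 22600 on the 1000 ng/ml arrays. The level was thus above that of the control in the 3 RNAs in which Iigp1 was. Lum was not well above background in the control on any array, nor was Dcn on the 1000 ng/ml arrays. The part of feeder RNA in the ratios of the immunity-related GTPases was not tested.

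The labelled cell type was checked with 10 markers of precursor B cells. On the 6 arrays, 8 of them were well above background throughout in clone 4 without doxycycline. Igll1 and Vpreb1 of the surrogate light chain were not well above background on the 300 ng/ml arrays, in the named RNA or in the control. Their summed level was 47300 to 51000 with 10 ng/ml, 47600 to 50100 with 300 ng/ml, 82200 to 92600 with 1000 ng/ml and 313000 to 321000 in Pax5sz2, against 81000 to 94000 in the control of the 6 arrays and 91800 to 107000 on the 1000 ng/ml arrays. The high sum in Pax5sz2 came with Vpreb1 (7.88 ± 0.94), Igll1 (5.65 ± 0.44) and Vpreb2 (4.23 ± 0.35), which were called higher there. Dntt (-4.89 ± 0.32) and Ebf1 (-1.58 ± 0.33) were called lower in Pax5sz2, and the median of the 10 markers was -0.37. Cd79a and Ebf1 were called lower with 1000 ng/ml as labelled, and none of the 10 was called with 10 or 300 ng/ml. A second Ebf1 probe gave only -0.25 in Pax5sz2 and -0.27 with 1000 ng/ml. In Pax5sz2 a second Igll1 probe gave 0.98, while other Dntt probes gave -4.09 and -3.05. Dntt could not be called with 300 ng/ml, since its brightest probe was left out as an outlier on 1 array. The other array gave -2.48, and its 2 other probes averaged -2.44 and -2.42. With 10 ng/ml Dntt had -0.97 and -1.01, and the other probes averaged -1.31 and -1.11. No T cell marker of 5 tested was called in any comparison. Of 3 NK cell markers tested, Nkg7 was called, lower with 300 ng/ml and higher with 1000 ng/ml and in Pax5sz2. Of 5 dendritic cell markers, Itgax and Siglech were lower with 300 ng/ml and Flt3 higher with 1000 ng/ml.

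Among all named features, those with the ratios most like Gbp8 were picked by the smallest Euclidean distance over the 4 comparisons. They were Spns3 of the spinster transporter family (distance 0.46), Fcer1g, the Fc receptor gamma chain (0.78), Tyrobp, an adaptor of myeloid and NK receptors (1.30), the integrin gene Itgb7 (1.35), the IL-18 receptor gene Il18r1 (1.35) and the decoy receptor gene Il1r2 (1.41). Each was nearer to Gbp8 than its nearest member, Gbp4, at 3.21. Spns3 had ratios of -1.09 with 10 ng/ml, -3.11 with 300 ng/ml, 4.32 with 1000 ng/ml and -1.29 in Pax5sz2. For Itgb7 and Il18r1 the control was not well above background on the 1000 ng/ml arrays, so their ratios there are not measured on both sides.

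The features most like Iigp1 were Pax5 (0.84), the small GTPase gene Arl15 (0.93), the transcription factor gene Snai2 (1.16), the coatomer gene Copg2 (1.2), the phospholipase gene Plaat3 (1.30) and the splicing factor gene Prpf19 (1.31). The nearest member was Irgm1 at 2.96, followed by Irgm2 at 3.27 and Igtp at 3.30, and Gbp8 was the farthest at 9.59. The Pax5 probe here is one for a complementary DNA clone, with 2.66 with 10 ng/ml, 2.36 with 300 ng/ml and 3.02 in Pax5sz2, and the probe for the coding transcript had -0.11, 0.23 and -0.27. Likewise a second Arl15 probe stayed between 0.04 and 0.15, and of 2 further Copg2 probes 1 had ratios like the first and 1 did not. Pax5 and Plaat3 were not well above background in either RNA with 1000 ng/ml. Likeness over 4 comparisons that share the control RNA is a description.

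A mean effect of doxycycline was fitted across all 19985 features with limma, from the 3 doses with 2 arrays each averaged. No feature passed an adjusted p of 0.05 (0% called; 1182 features had an unadjusted p under 0.05, and the smallest adjusted p was 0.701). With the sign of the 1000 ng/ml pair turned, none passed either (4904 with an unadjusted p under 0.05, smallest adjusted p 0.12). Without that pair, 2826 features passed, 14.1% of all, 1118 higher and 1708 lower, and Gbp5, Igtp, Iigp1 and Irgm1 were the 4 of the 10 genes among them. Nothing is read from that count, since the genes were picked on these ratios. The fit counts differences between doses as spread and leaves out the spread of the control RNA, for which no second sample was analysed here.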

How the data were processed

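The samples were 8 dual-colour Agilent mouse arrays of total RNA, 4 RNAs each on 2 dye-swapped arrays against clone 4 without doxycycline. The deposited scanner output, per the file headers, was made by Feature Extraction 10.5.1.1 and gives each channel's mean spot intensity and local background, and a log10 ratio of Cy5 over Cy3. The authors' deposited values are the same log10 ratios with the sign changed on arrays whose named RNA was in Cy3 (equal within 5e-06). The genome build of the probe coordinates is mm8, per the file headers.

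From the spots, R 4.3.3 with limma 3.58.1 gave background correction (normexp, offset 50), loess within arrays with control spots at weight 0, and log2 ratios turned to named RNA over control, with 37 to 295 outlier spots per array left out. No spot was saturated (0). The deposited log10 ratios, multiplied to log2, were an alternative. Spots of a probe were averaged, and a gene was read by its brightest probe. Probes were named through RefSeq accession (23374), symbol (6733) or older symbol (2919), and 8148 kept their own name. Levels are log2 channel values after Aquantile, with outlier spots kept. The labels name no replicate cultures, so single comparisons have a size rule and no p-value. The mean effect used limma (two-sided, Benjamini-Hochberg). Steps were tested on simulated data. Figures used Python 3.11.15 and matplotlib 3.10.9, and files were read with version 1.17.8 of data.table.

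The genes, the lists and the tests were chosen with earlier results of these data known. By the rule for named genes, all 10 members were named, up to 3 tested genes of each pathway list with the largest ratio with 300 ng/ml, and the 6 nearest features of Gbp8 and of Iigp1. Genes named outside it (Irf2, Tap2, Cd74 and the markers called, for example) were named after their values were seen, to say which genes a small count holds. For the list of interferon transcription factors, 1 gene and the counts that include it are not reported here. Alternatives were median centring, the deposited ratios, outlier spots kept, no detection filter, the mean over a gene's probes, each array left out, the turned 1000 ng/ml sign, the fit without that pair, a robust and trended fit and, added after seeing the data, Gbp6 read by the probe the array names Gbp6.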

Additional observations from a re-analysis of the deposited data

Results flagged for a closer look

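With the directions as labelled, for 4 of the 10 genes every array of 1 dose lay on one side of 0 and every array of another dose on the other side. None of these differences was tested, and the 1000 ng/ml values are as labelled, with batch and dose not told apart. For Gbp8 the log2 ratio with 1000 ng/ml minus that with 10 ng/ml was 5.65, and minus that with 300 ng/ml 7.81. For Gbp4 the difference was 2.22 for 1000 minus 10 ng/ml and 3.85 for 1000 minus 300 ng/ml. For Irgm1 it was -1.61 for 1000 minus 10 ng/ml and -1.86 for 1000 minus 300 ng/ml. For Gbp6 it was 1.1 for 1000 minus 300 ng/ml. The 1 such difference that does not rest on the 1000 ng/ml pair was that of Gbp6 at 300 minus 10 ng/ml, at -0.87. With the deposited ratios, however, Gbp6 averaged 0.04 with 300 ng/ml, against -0.34 here. Its side of 0 at that dose thus depends on the processing. With the sign of the 1000 ng/ml pair turned, 2 genes had doses on opposite sides of 0. These were Gbp6, at -0.87 for 300 minus 10 ng/ml and -1.29 for 1000 minus 10 ng/ml, and Irgm2, at -1.75 for 1000 minus 10 ng/ml.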

How the results depend on the processing

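Each ratio pairs the named RNA with the control RNA on the same array. Samples could not be paired across groups, because the labels name no replicate cultures. Turning the 1000 ng/ml sign reverses Gbp4 to -1.63 and Gbp8 to -4.32. Features past the size numbered 375 with 10 ng/ml, 735 with 300 ng/ml, 514 with 1000 ng/ml and 1032 in Pax5sz2. Under median centring they were 149 (74 higher, 75 lower), 480 (96 and 384), 193 (146 and 47) and 682 (479 and 203). With the deposited ratios they were 1052 (361 and 691), 1861 (775 and 1086), 921 (681 and 240) and 2165 (1012 and 1153). Leaving out an array gave 555 to 691, 1092 to 2260, 687 to 766 and 1271 to 1378. Members past the size fell to 1 with 10 ng/ml and to 1 with 1000 ng/ml under median centring, where Gbp8 averaged -1.06 with 10 ng/ml (1 array short of 2-fold) and -0.74 in Pax5sz2. In Pax5sz2, members past the size were 2 higher and 1 lower, but 4 and 0 under median centring, 3 and 0 with the deposited ratios and 3 and 0 in the mean over probes. With an array left out, they were 3 to 4 with 10 ng/ml, 4 to 5 with 300 ng/ml and 4 to 5 in Pax5sz2. Median centring moved the median of all features in Pax5sz2 to 0.15, and Gbp4 there to 0.09. The mean effect over 3 doses gave 0 features, and also 0 with an array of each dose left out. Without the 1000 ng/ml pair it gave 2826. Why the count differed without that pair was not tested. Of 40 ratios of members, 37 kept their sign under median centring and 37 with the deposited ratios.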
